A study of Mus musculus with 38 samples.

Results

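The response to Dox was compared between kidney tumour cells in which Vhl was deleted and kidney tumour cells in which it was not. The comparison rests on the 24 RNAseq libraries of cultured cells among 38 libraries in the series, chosen by their labels. MYC-2983 cells carry the MYC transgene alone (Ksp-rtTA; Tet-O-MYC). VM-3055 cells carry it with deletion of Vhl (conditional Vhl F/F alleles with KspCreERT2, beside Ksp-rtTA and Tet-O-MYC), and VIM-3039 cells carry in addition germline loss of Ink4a/Arf (Cdkn2a). Each line has 4 libraries from cells kept in Dox at 2 µg per ml and 4 from cells withdrawn from it, with RNA taken 24 h after plating, and the line numbers of the VM and VIM cells come from the study's text. The Ksp-cadherin promoter of renal tubule cells drives the Dox-dependent activator rtTA in all 3 genotypes and the tamoxifen-inducible Cre in the Vhl-deleted ones, so Dox switches on MYC in all 3 lines. The quantity tested is the mean of the Dox changes of VM-3055 and VIM-3039 cells minus the Dox change of MYC-2983 cells, on the log2 scale, and is called the difference below.

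MYC is a transcription factor that binds the E-box CACGTG with its partner MAX and is best known for raising genes of ribosome production, nucleotide synthesis and the cell cycle. VHL is the substrate-recognition part of a ubiquitin ligase that removes the alpha subunits of the hypoxia-inducible factors (HIF) when oxygen is present. Cells without VHL therefore keep HIF, which binds sites with the core ACGTG in genes of glycolysis, oxygen sensing and vessel growth. In the kidney, loss of VHL is the founding event of most clear cell carcinomas.

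Each genotype is represented by 1 line, so the effect of Vhl, that of the line and, in VIM-3039 cells, that of Ink4a/Arf cannot be told apart. The S-numbers in the sample titles restart for the MYC-2983 libraries, while the Vhl-deleted lines share 1 series of them. What they count is not stated, and whatever they mark cannot be told apart from Vhl status. Estimated reads assigned to genes were 23.1 to 28.6 M in MYC-2983 libraries and 12.4 to 19.9 M in those of the Vhl-deleted lines, except for 1 VM-3055 library without Dox at 36.6 M. Whether the 4 libraries of a group came from separate cultures is not stated, so p-values measure the spread between libraries, which may be technical. Levels are in units of the deposited signal, which sets the upper quartile of each library to 1000. Of the renal epithelial markers, Cdh16 and Pax8 were present in all lines, and the summed level of 8 such markers was 7327 to 21557 units. Of the 8, 7 reached a mean of 10 units in the higher Dox group of every line. In VM-3055 cells without Dox, Cdh16 read 9230 units in 1 library and 8936 on average in the other 3. It was thus a large part of the sum there, which was 15886 to 16592 units. Fibroblast markers summed to 8888 to 28037 units in MYC-2983 cells, nearly all from Postn, against 12.7 to 254 units in the Vhl-deleted lines, where Thy1 was at 0 in every library.

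The engineered genes were examined first. Vhl read 461, 455, 456 and 433 units in the MYC-2983 libraries with Dox and 533, 526, 543 and 529 units without it. In VM-3055 cells, Vhl read 10.3, 14.5, 12.7 and 14.9 units with Dox and 25.6, 35.3, 38.8 and 24.3 units without it. In VIM-3039 cells, Vhl read 18, 8.32, 12.5 and 12.1 units with Dox and 9.49, 15.6, 18.4 and 24.9 units without it. Vhl RNA was thus low but not absent in both Vhl-deleted lines, and its difference was -0.53 ± 0.26 (SE; adjusted p = 0.101). The row of the mouse gene Myc was lower with Dox throughout: its Dox change was -1.44 (MYC-2983), -1.83 (VM-3055) and -1.96 (VIM-3039). Its difference was -0.46 ± 0.07 (SE; adjusted p = 2.39e-06). The transgene has no row of its own, so its level was not compared between the lines. Cdkn2a, which encodes Ink4a and Arf, had group means of 3171 to 5162 units in the lines that keep it and read 24.9 to 40.8 units in the VIM-3039 libraries.

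Of 16092 genes tested, 1170 (7.27%) had a difference beyond 1 on the log2 scale with an adjusted p under 0.05, 513 of them above 0 (3.19%) and 657 below 0 (4.08%). At the adjusted p alone, 19.6% of genes were above 0 and 25.9% below 0. The Dox change itself passed both thresholds for 2944 genes in MYC-2983 cells (18.3%; 4.2% rose, 14.1% fell). It passed for 3600 genes in VM-3055 cells (22.4%; 5.29% rose, 17.1% fell) and for 3443 genes in VIM-3039 cells (21.4%; 6.72% rose, 14.7% fell). The balance of rises and falls depended on the scaling: with quantile normalization MYC-2983 cells had 1125 rises and 1501 falls, VM-3055 cells 1514 and 1615, and VIM-3039 cells 1557 and 1605. The median Dox change of all genes moved from -0.21 to 0.02 in VM-3055 cells, from -0.12 to 0.01 in MYC-2983 cells and from -0.09 to 0.02 in VIM-3039 cells, while the median difference moved from -0.03 to -0.00. Over the 10814 genes whose mean reached 50 units, the SD of the Dox change was 0.73 in MYC-2983 cells and 0.87 in each of the Vhl-deleted lines. A gene counts as measurable in a line where its higher Dox group has a mean of at least 10 units, and 11329 genes were measurable in all 3 lines. Among these, 403 (3.56%) passed, 94 with a difference above 0 and 309 below 0, and quantile normalization gave 152 and 221. Of the 1170 genes, 248 were measurable in MYC-2983 cells alone and 301 in no line. In such genes the unit added before the logarithm limits the change that a line can show.

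**Figure D1:**
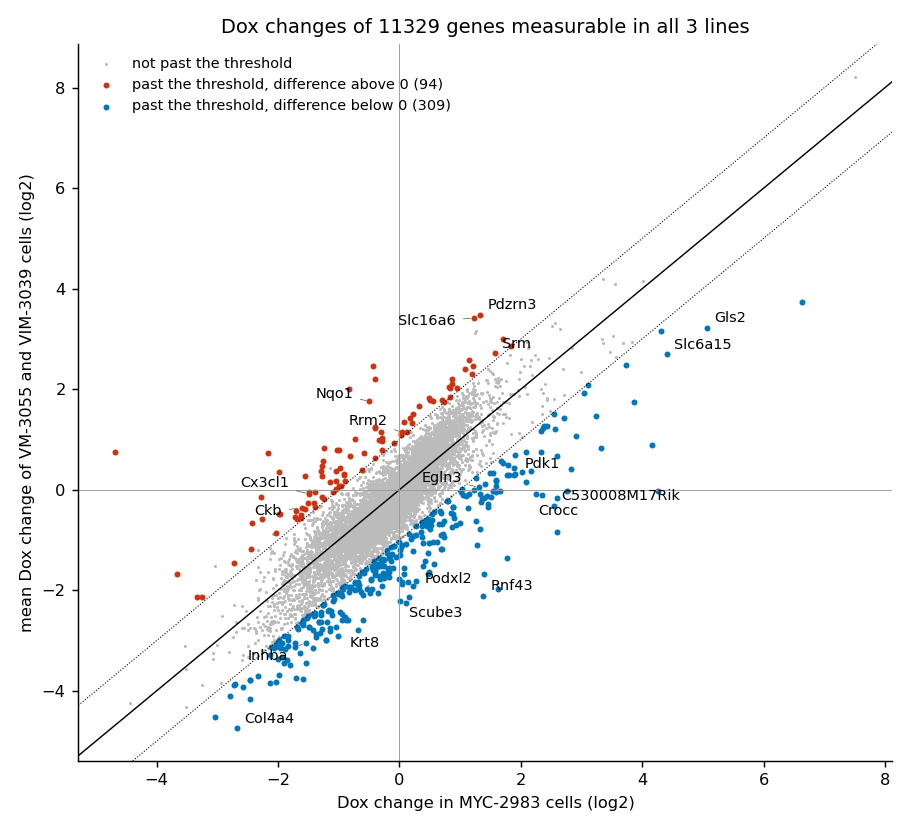
Dox change in MYC-2983 cells (x axis, log2) against the mean Dox change of VM-3055 and VIM-3039 cells (y axis, log2) for the 11329 genes measurable in all lines, 1 point per gene. The solid line marks equal changes and the dotted lines a difference of 1 in either direction. The 94 red points passed with a difference above 0 and the 309 blue points with a difference below 0.

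The genes that passed were sorted by whether the Dox change was called in each line. Dox raised 31 genes in both Vhl-deleted lines with no call in MYC-2983 cells, and 19 of these were measurable in all lines. It lowered 170 genes in both Vhl-deleted lines with no call in MYC-2983 cells, 95 of them measurable in all lines. Calls in MYC-2983 cells alone numbered 158 rises and 288 falls, of which 46 and 22 were measurable in all lines. Another 136 genes moved the same way in all 3 lines by unequal amounts, 109 of them measurable throughout. Of these 109, 85 fell more in the Vhl-deleted lines, 13 rose more in MYC-2983 cells, 9 rose more in the Vhl-deleted lines and 2 fell more in MYC-2983 cells. No gene rose in both Vhl-deleted lines and fell in MYC-2983 cells, and 3 genes did the opposite. A further 270 genes had another combination that includes a call in a Vhl-deleted line, and 114 were called in no single line.

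**Figure D2:**
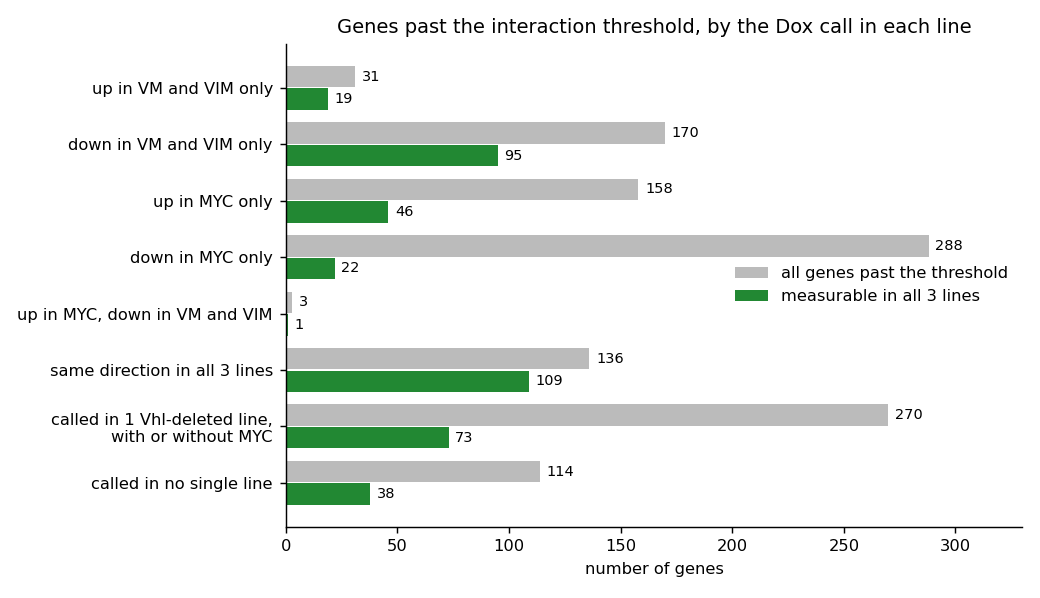
Number of genes past the threshold for the difference (x axis), by the lines in which the Dox change was called (y axis). Grey bars count all 1170 genes and green bars the 403 measurable in all 3 lines. The 288 genes called lower in MYC-2983 cells alone shrink to 22 when they must be measurable throughout, while 109 of the 136 that moved the same way in all lines remain.

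Genes of ribosome production were higher with Dox in every line by their median, and by more in the Vhl-deleted lines. Rises were called for 14 of them in MYC-2983 cells, 31 in VM-3055 cells and 32 in VIM-3039 cells. Over all genes tested, rises were called for 4.2%, 5.29% and 6.72% in the same order. None of the 37 ribosome biogenesis genes tested had a difference beyond 1, against 7.27% of all genes, but 36 of the 37 had a difference above 0, 34 of them with an adjusted p under 0.05 (19.6% of all genes). Over all genes tested, 46.4% had a difference above 0. The list's median Dox change was 0.91 (MYC-2983), 1.48 (VM-3055) and 1.58 (VIM-3039), and the median difference was 0.64, against -0.03 over all genes tested. The largest in the list was Mybbp1a, which encodes a nucleolar protein that binds MYB. Mybbp1a read 16631, 16873, 17479 and 17829 units in the MYC-2983 libraries with Dox and 9874, 9360, 9963 and 10016 units without it. In VM-3055 cells, Mybbp1a read 12350, 11837, 11474 and 11620 units with Dox and 3623, 3859, 3593 and 3614 units without it. In VIM-3039 cells, Mybbp1a read 11536, 11403, 11423 and 11662 units with Dox and 3393, 3299, 3339 and 3409 units without it. Mybbp1a was lower in the Vhl-deleted lines under both conditions, by the wider ratio without Dox, and the Dox groups of a line never overlapped. The gene overlaps Spns2 on the other strand. The Dox change of Mybbp1a was 0.81 (MYC-2983), 1.69 (VM-3055) and 1.78 (VIM-3039), a difference of 0.92 ± 0.04 (SE; adjusted p = 2.03e-16).

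Synthesis of nucleotides, one-carbon units and polyamines showed the same order. All 32 genes tested had a difference above 0, 31 with an adjusted p under 0.05, and the median difference was 0.58. At the adjusted p alone 19.6% of all genes were above 0. The 2 past the full threshold, 6.25% of the list against 7.27% of all genes, were Srm (spermidine synthase; mm9 chr4:147965612-147969102, plus strand) and Rrm2 (the small subunit of ribonucleotide reductase; mm9 chr12:25393106-25399011, plus strand). Srm read 6112, 6277, 6461 and 6205 units in the MYC-2983 libraries with Dox and 2165, 2074, 2055 and 2168 units without it. In VM-3055 cells, Srm read 6017, 5643, 5455 and 5613 units with Dox and 882, 839, 905 and 829 units without it. In VIM-3039 cells, Srm read 5687, 5474, 5495 and 5813 units with Dox and 879, 797, 852 and 894 units without it. Levels with Dox were within 5455 and 6461 units in every line, and the lines parted in the libraries without Dox. The Dox change of Srm was 1.57 (MYC-2983), 2.72 (VM-3055) and 2.71 (VIM-3039), and the difference was 1.15 ± 0.05 (SE; adjusted p = 6.05e-17). Rrm2 read 4765, 4639, 4516 and 4916 units in the MYC-2983 libraries with Dox and 4667, 4334, 4674 and 4553 units without it. In VM-3055 cells, Rrm2 read 4652, 4717, 4742 and 4971 units with Dox and 2258, 2437, 2257 and 2230 units without it. In VIM-3039 cells, Rrm2 read 6565, 6831, 6682 and 6506 units with Dox and 2917, 2847, 2874 and 2713 units without it. Rrm2 thus overlapped between the Dox groups in MYC-2983 cells and was separate in both Vhl-deleted lines. Its change was 0.05 (MYC-2983), 1.06 (VM-3055) and 1.23 (VIM-3039), and the difference was 1.09 ± 0.04 (SE; adjusted p = 3.61e-17).

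The E-box was looked for in promoters of these genes because both lists are textbook MYC targets that moved together. In RefSeq promoters (GRCm38.p6, 250 bases before to 50 after the start), CACGTG, which reads the same on both strands and contains ACGTG, was present for 8 of 31 matched ribosome biogenesis genes (25.8%). It was present for 5 of 28 matched nucleotide genes (17.9%), against 11.1% of the 11171 tested genes with a promoter and 8.09% of all 27025 genes in the promoter table. The shares in genes with a rise or a fall called in both Vhl-deleted lines and not in MYC-2983 cells were 2 of 23 and 10 of 117 (8.70% and 8.55%). In genes with a rise or a fall called in MYC-2983 cells and in no other line they were 11 of 105 and 13 of 177 (10.5% and 7.35%). None of these shares was tested, and a match describes the letters only. The stretches around the E-box are shown, gene strand from 5′ to 3′ with the E-box in capitals, for 3 members of each list that hold it before the start.
Nop2 (chr6:125131783-125131868, plus strand): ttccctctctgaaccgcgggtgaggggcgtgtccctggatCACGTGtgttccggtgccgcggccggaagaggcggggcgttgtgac
Rrn3 (chr16:13780449-13780529, plus strand): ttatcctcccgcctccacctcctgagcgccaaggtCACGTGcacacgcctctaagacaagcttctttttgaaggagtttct
Imp4 (chr1:34439668-34439753, plus strand): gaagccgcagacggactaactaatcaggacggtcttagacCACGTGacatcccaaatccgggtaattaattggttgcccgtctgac
Paics (chr5:76951059-76951144, plus strand): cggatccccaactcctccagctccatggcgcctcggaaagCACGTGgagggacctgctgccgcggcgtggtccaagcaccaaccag
Impdh2 (chr9:108560286-108560371, plus strand): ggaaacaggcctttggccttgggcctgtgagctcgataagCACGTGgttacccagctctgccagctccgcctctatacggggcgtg
Tyms (chr5:30073641-30073726, minus strand): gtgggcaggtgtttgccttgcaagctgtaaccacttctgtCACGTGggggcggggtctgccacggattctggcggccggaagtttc
These genes encode an rRNA methyltransferase (Nop2), a factor of RNA polymerase I (Rrn3), a protein of the small-subunit processome (Imp4), enzymes of purine synthesis (Paics, Impdh2) and thymidylate synthase (Tyms). Their differences were 0.86, 0.33, 0.28, 0.26, 0.59 and 0.71 in that order, each with an adjusted p under 0.05 and none beyond 1. Nop2, with the E-box 60 bases before the start, read 3791 to 3898 units with Dox in MYC-2983 cells and 3553 to 3755 units in VM-3055 cells. Without Dox it read 2230 to 2436 and 1128 to 1296 units. Impdh2 rose from 173 ± 7.11 to 380 ± 15.1 units (SD, n = 4) in MYC-2983 cells and from 98.4 ± 8.09 to 338 ± 21.6 units in VIM-3039 cells. Paics differed from this: without Dox it was at 3878 to 4110 units in MYC-2983 cells and 4086 to 4410 units in VM-3055 cells, so its larger change there lay in the libraries with Dox.

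Further lists of growth and division leaned the same way with no member past the threshold. Differences above 0 were found for 33 of 34 DNA replication genes, 27 of 29 mitosis genes, 18 of 19 chaperones, 73 of 75 cytosolic ribosomal proteins and 38 of 43 translation factors. The medians were 0.36, 0.32, 0.37, 0.27 and 0.22. Cdc6, which loads the replicative helicase, was the largest of the replication list at 0.90, and Hspd1, the mitochondrial HSP60, was at 0.73. Of 73 genes of oxidative phosphorylation 33 were above 0, with a median difference of -0.02, and the proteasome and the aminoacyl-tRNA synthetases had medians of 0.06 each. In the list of G1 cyclins, CDK inhibitors, E2F and RB, Ccne2 (cyclin E2) was just short of the threshold at 0.999, and passed under TMM rescaling. The medians of these 5 lists stayed above 0 under TMM rescaling and quantile normalization.

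**Figure D3:**
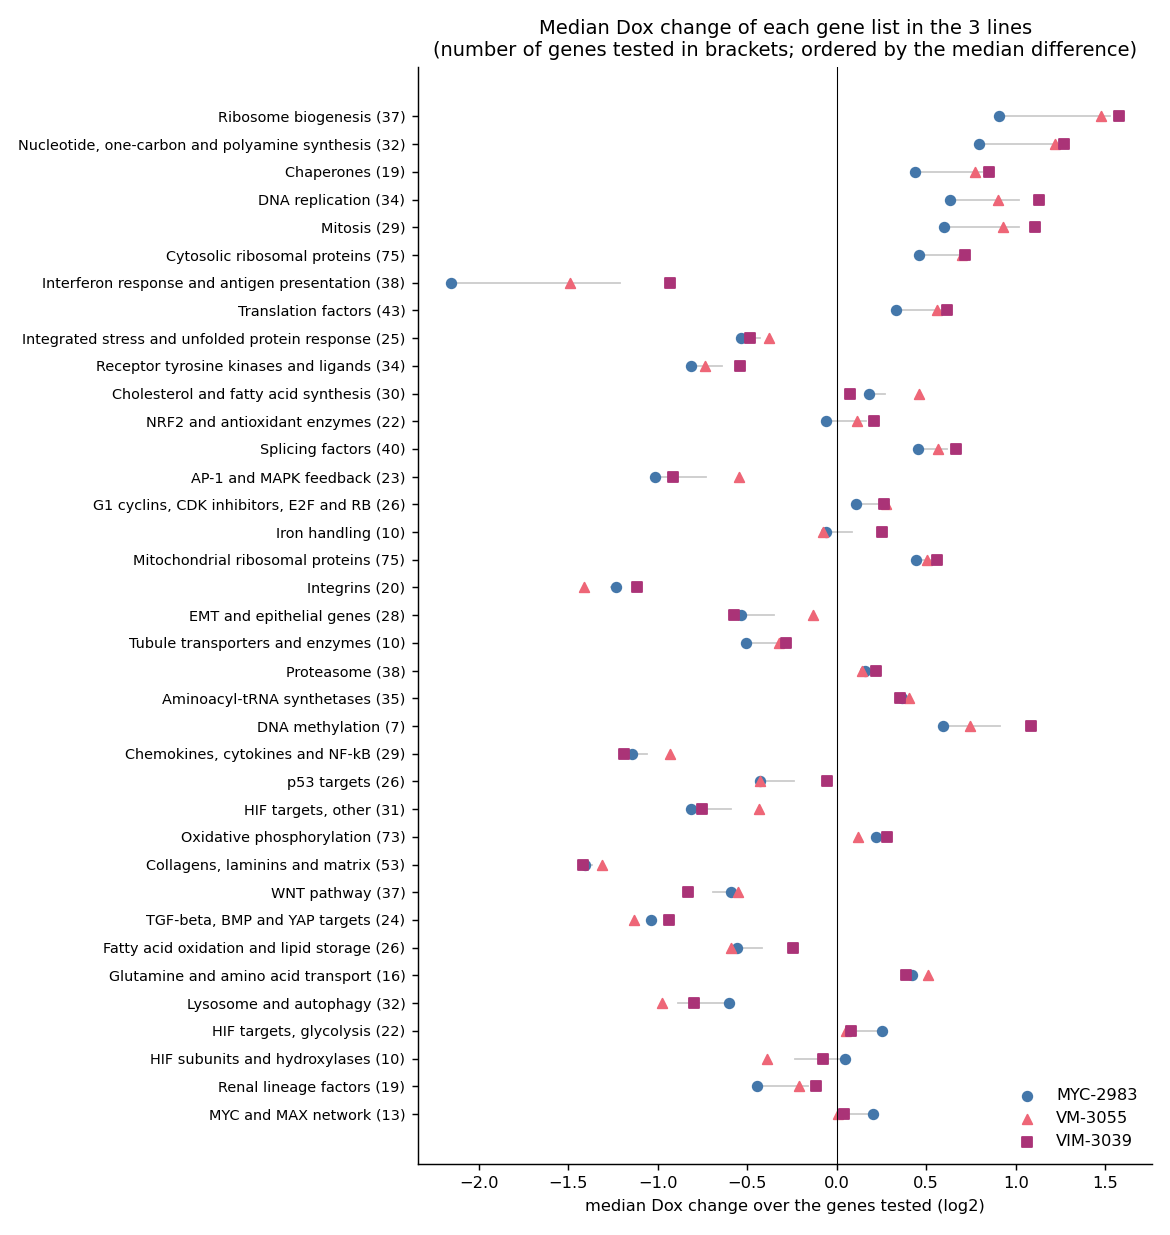
Median Dox change (x axis, log2) of each gene list (y axis, number of genes tested in brackets) in MYC-2983 (circles), VM-3055 (triangles) and VIM-3039 cells (squares), ordered by the median difference. The grey line joins MYC-2983 cells to the mean of the medians of the Vhl-deleted lines. Ribosome biogenesis stands at the top, with medians of 0.91, 1.48 and 1.58.

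Single genes had a larger increase with Dox in the Vhl-deleted lines than in MYC-2983 cells. Slc1a5, a glutamine transporter of the plasma membrane, is an example at high level (mm9 chr7:17366695-17383623, plus strand). Slc1a5 read 2555, 2489, 2601 and 2575 units in the MYC-2983 libraries with Dox and 1328, 1298, 1328 and 1328 units without it. In VM-3055 cells, Slc1a5 read 2336, 2048, 2041 and 2070 units with Dox and 560, 512, 521 and 539 units without it. In VIM-3039 cells, Slc1a5 read 2995, 2858, 2847 and 2815 units with Dox and 659, 667, 677 and 747 units without it. Dox libraries were higher in all 3 lines with no overlap, and the Vhl-deleted lines were lowest without Dox. The changes were 0.95 (MYC-2983), 1.99 (VM-3055) and 2.07 (VIM-3039), and the difference was 1.08 ± 0.05 (SE; adjusted p = 1.6e-15). Among genes with a rise called in both Vhl-deleted lines and none in MYC-2983 cells, with at least 50 units in each line and a like change in both, the largest differences were those of Cisd3 (a mitochondrial iron-sulphur protein), C630043F03Rik, Dctd (dCMP deaminase), Fam72a and Rrm2. Cisd3 rose from 524 ± 29.5 to 1444 ± 71.4 units (SD, n = 4) in VM-3055 cells and from 554 ± 14.3 to 1621 ± 47.5 in VIM-3039 cells, against 641 ± 22.5 to 750 ± 34.5 in MYC-2983 cells. Its difference was 1.28, and those of C630043F03Rik, Dctd and Fam72a were 1.28, 1.25 and 1.19. Dctd read 154 to 179 units without Dox and 689 to 724 units with it in VM-3055 cells, against 519 to 557 and 960 to 988 units in MYC-2983 cells. All but Rrm2 were also higher with Dox in MYC-2983 cells, with no overlap and an adjusted p under 0.05, but short of the size threshold: the changes there were 0.23 for Cisd3, 0.51 for C630043F03Rik, 0.86 for Dctd and 0.83 for Fam72a. Under quantile normalization Fam72a did not pass.

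Another set rose in all lines and by more in the Vhl-deleted lines. Slc16a6 (a monocarboxylate transporter family member), Pdzrn3 (a PDZ-domain ubiquitin ligase) and Slc29a1 (the nucleoside transporter ENT1) were chosen for description after their values were seen. Slc16a6 was at 6.98 to 19.9 units without Dox and 147 to 170 units with it in VM-3055 cells, and at 100 to 126 and 249 to 293 units in MYC-2983 cells. Pdzrn3 changed by 1.33 (MYC-2983), 3.84 (VM-3055) and 3.13 (VIM-3039), and its difference was 2.16 ± 0.17 (SE; adjusted p = 2.36e-11). Slc29a1 changed by 1.08 (MYC-2983), 2.75 (VM-3055) and 2.05 (VIM-3039), and its difference was 1.32 ± 0.04 (SE; adjusted p = 3.44e-19). Mybl2, a cell-cycle transcription factor chosen in the same way, had a difference of 1.09. With VIM-3039 cells alone set against MYC-2983 cells, Slc29a1 and Mybl2 were at 0.97 each and did not pass. Outside this set, Nqo1, the quinone reductase of the NRF2 list, passed with 2.25 ± 0.29 (SE; adjusted p = 2.38e-07). Its levels were 518 to 817 units in MYC-2983 cells, too narrow a range for a called change there. They were 2.49 to 34.7 units in the Vhl-deleted lines. Nqo1 was the only one of the 22 NRF2 and antioxidant genes past the threshold, and 4.55% of that list compares with 7.27% of all genes. Slc1a3, a glutamate transporter picked after its values were seen, was outside the set for the same reason. It read 763 to 1098 units in MYC-2983 cells and 0.76 to 21.3 units in the other lines, with a difference of 2.89.

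A pair of HIF targets stood higher in the Vhl-deleted lines than in MYC-2983 cells under both conditions, and their Dox change passed the threshold in MYC-2983 cells and in neither of the others. Pdk1, the kinase that shuts pyruvate dehydrogenase, lies at mm9 chr2:71711281-71741915, plus strand. Pdk1 read 1348, 1367, 1371 and 1290 units in the MYC-2983 libraries with Dox and 356, 386, 347 and 365 units without it. In VM-3055 cells, Pdk1 read 5447, 5106, 5349 and 5422 units with Dox and 3754, 3929, 3864 and 3872 units without it. In VIM-3039 cells, Pdk1 read 4361, 4333, 4180 and 4162 units with Dox and 3215, 3263, 3264 and 3242 units without it. Dox and no-Dox libraries were separate in each line, and every MYC-2983 library was below every library of the Vhl-deleted lines. The Dox change of Pdk1 was 1.89 (MYC-2983), 0.47 (VM-3055) and 0.39 (VIM-3039), a difference of -1.46 ± 0.04 (SE; adjusted p = 9.41e-21). Egln3, the HIF prolyl hydroxylase PHD3, is itself a HIF target and lies at mm9 chr12:55279968-55304847, minus strand. Egln3 read 187, 220, 206 and 192 units in the MYC-2983 libraries with Dox and 68.2, 98.7, 76.4 and 81.1 units without it. In VM-3055 cells, Egln3 read 4286, 4452, 4384 and 4397 units with Dox and 5466, 5550, 5798 and 5575 units without it. In VIM-3039 cells, Egln3 read 2187, 2351, 2086 and 2242 units with Dox and 1724, 1610, 1605 and 1579 units without it. With Dox, Egln3 was higher in MYC-2983 and VIM-3039 cells and lower in VM-3055 cells, with separate groups in every line, and only the change in MYC-2983 cells passed the threshold. Its change was 1.31 (MYC-2983), -0.35 (VM-3055) and 0.44 (VIM-3039), and the difference was -1.27 ± 0.08 (SE; adjusted p = 7.01e-13). With VIM-3039 cells alone set against MYC-2983 cells Egln3 did not pass.

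The 250 bases before the Egln3 start are shown because they hold the HIF core, given in capitals on the gene strand (chr12:54203875-54204124, minus strand, GRCm38.p6, RefSeq).
Egln3: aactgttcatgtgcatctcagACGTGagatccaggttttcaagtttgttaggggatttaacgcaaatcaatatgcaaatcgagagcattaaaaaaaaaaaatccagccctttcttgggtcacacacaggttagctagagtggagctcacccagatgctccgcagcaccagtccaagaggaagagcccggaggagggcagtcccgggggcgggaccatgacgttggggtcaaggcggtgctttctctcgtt
The core stands 229 bases before the start. The stretch before Pdk1 is not shown. Over the whole promoter window, ACGTG on either strand was present for 12 of 20 matched HIF glycolysis genes (60%) and 14 of 22 other HIF targets (63.6%), against 27.7% of tested genes. It was present for 26.1%, 25.6%, 25.7% and 16.4% of the matched genes in the same 4 classes of calls, in that order.

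Most of the glycolytic HIF targets had differences of the same sign as Pdk1, of smaller size. Of the 22, Pdk1 alone passed (4.55% of the list, 7.27% of all genes), and 4 had a difference above 0. A difference below 0 with an adjusted p under 0.05 was found for 13 of the 22, Pdk1 included (25.9% of all genes), and the median difference was -0.25, between -0.30 and -0.17 under the other settings. Of 31 further HIF targets, Adm (adrenomedullin) and Bhlhe41 (a circadian repressor) passed above 0 and Egln3 below 0, which is 9.68% of the list against 7.27% of all genes, and the median was 0.02. Adm changed by -1.27 (MYC-2983), 0.76 (VM-3055) and -1.06 (VIM-3039), so the mean over the Vhl-deleted lines describes neither, and with VIM-3039 cells alone its difference was 0.21. Bhlhe41 had a difference of 1.04 ± 0.17 (SE; adjusted p = 7.32e-06), which fell short of the threshold at 0.967 without MYC-2983 Dox library 1, 0.989 without MYC-2983 no-Dox library 3 and 0.978 without VM-3055 no-Dox library 2. It was also short of the threshold with VM-3055 cells alone (0.76) and with a pseudocount of 10 (0.92). Among 10 HIF subunits and hydroxylases the median difference was -0.27. In the MYC and MAX network the median was -0.44 over 13 genes, and 2 passed, both below 0 (15.4% of the list against 7.27% of all genes). These were Mycn at -1.69 (-0.27 with a pseudocount of 10) and Mlxipl, the carbohydrate response factor ChREBP, at -2.94. Only 1 of the 2 was measurable in all lines. Mlxipl was at 3 reads or fewer in all 8 VM-3055 libraries and in the 4 VIM-3039 libraries with Dox.

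Among genes with a rise called in MYC-2983 cells and no call in the others, with at least 50 units in each line and a like change in the others, C530008M17Rik and Crocc had the largest differences. Crocc encodes rootletin, a filament of the ciliary rootlet, and lies at mm9 chr4:140572552-140616465, minus strand. Crocc read 1048, 1127, 1342 and 1156 units in the MYC-2983 libraries with Dox and 208, 211, 246 and 248 units without it. In VM-3055 cells, Crocc read 324, 244, 214 and 208 units with Dox and 217, 223, 259 and 267 units without it. In VIM-3039 cells, Crocc read 127, 110, 114 and 124 units with Dox and 127, 153, 122 and 164 units without it. Only MYC-2983 cells had separate groups, and their libraries without Dox lay in the range of the VM-3055 libraries. The change was 2.35 (MYC-2983), 0.02 (VM-3055) and -0.24 (VIM-3039), and the difference was -2.46 ± 0.14 (SE; adjusted p = 5.28e-14). C530008M17Rik had a difference of -2.86 ± 0.20 (SE; adjusted p = 3.71e-12), from 13.9 ± 2.31 to 84.8 ± 7.13 units (SD, n = 4) in MYC-2983 cells. It overlaps annotated genes on both strands. The next were Epb4.9 (the actin-bundling protein dematin), Hiatl1 (a transporter-like membrane protein) and Adcy1 (an adenylate cyclase), with differences of -1.89, -1.69 and -1.68. Hiatl1 and Adcy1 had lower levels in MYC-2983 cells than in the Vhl-deleted lines under both conditions. Hiatl1 went from 46.7 to 65.6 units without Dox to 147 to 188 units with it, while VM-3055 libraries spanned 936 to 1077 units.

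Several genes rose in all lines with the larger rise in MYC-2983 cells. Slc6a15, a neutral amino acid transporter, lies at mm9 chr10:102830477-102882011, plus strand. Slc6a15 read 708, 706, 701 and 681 units in the MYC-2983 libraries with Dox and 31.5, 25, 37 and 36.5 units without it. In VM-3055 cells, Slc6a15 read 1540, 1479, 1543 and 1525 units with Dox and 295, 305, 267 and 275 units without it. In VIM-3039 cells, Slc6a15 read 1408, 1463, 1359 and 1389 units with Dox and 180, 165, 176 and 186 units without it. The levels with Dox were higher in the Vhl-deleted lines, and so, by a wider ratio, were those without it. Slc6a15 changed by 4.40 (MYC-2983), 2.41 (VM-3055) and 2.98 (VIM-3039), and the difference was -1.70 ± 0.09 (SE; adjusted p = 2.7e-14). Gls2, the liver-type glutaminase, was at 10.3 to 13.9 units without Dox and 419 to 456 with it in MYC-2983 cells, and at 30.4 to 52 and 295 to 542 units in the Vhl-deleted lines. Its change was 5.06 (MYC-2983), 3.59 (VM-3055) and 2.85 (VIM-3039), and the difference was -1.84 ± 0.16 (SE; adjusted p = 2.33e-10). Lpl, lipoprotein lipase, reached 417 to 485 units with Dox in MYC-2983 cells, 33.2 to 43.0 in VM-3055 and 11.8 to 17.8 in VIM-3039 cells, from 0 to 5.92 units without Dox in any line. Its difference of -2.89 missed the threshold with a pseudocount of 0.1. In the list of 16 glutamine and amino acid transport genes, Slc1a5 passed above 0 and Gls2 and Slc6a15 below 0. That is 18.8% of the list against 7.27% of all genes.

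**Figure D4:**
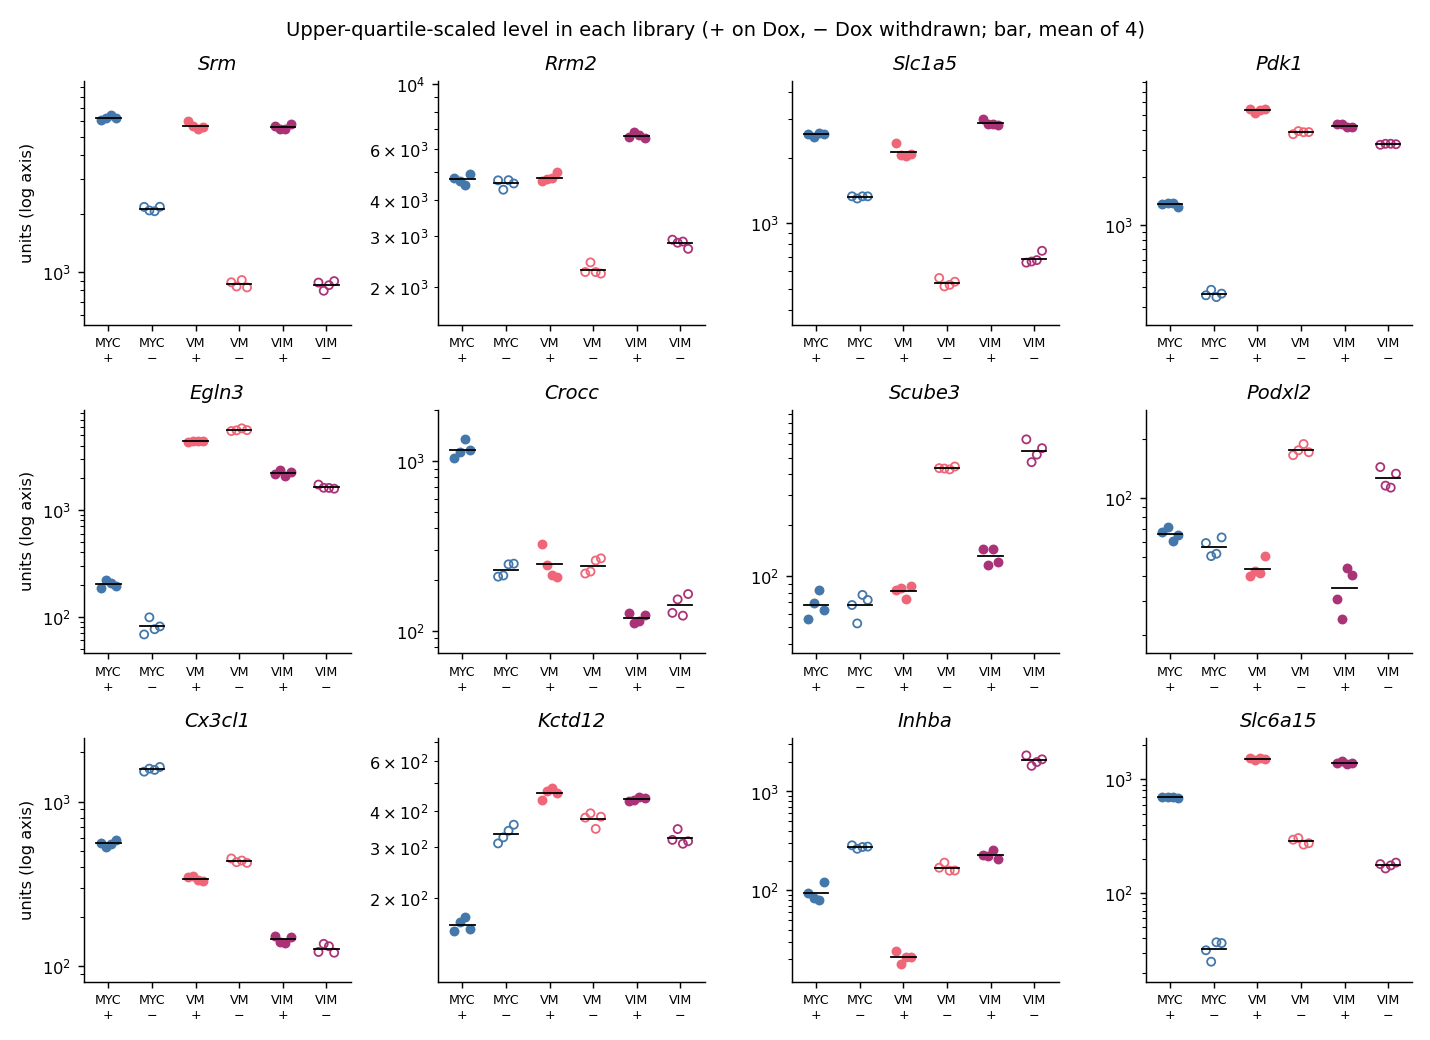
Level in each of the 24 libraries (y axis, upper-quartile-scaled units on a log axis) for 12 genes, with filled points for libraries with Dox, open points for libraries without it and a bar at the mean of 4. Srm and Slc1a5 differ between the lines mainly without Dox, Pdk1 and Slc6a15 rise furthest in MYC-2983 cells, and Scube3 and Podxl2 move in the Vhl-deleted lines alone.

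Of the genes with a fall called in both Vhl-deleted lines and none in MYC-2983 cells, those named had at least 50 units in each line and a like change in both. Scube3, a secreted EGF-repeat protein, had the largest difference among them (mm9 chr17:28279261-28311797, plus strand). Scube3 read 55.9, 69.1, 82.9 and 62.9 units in the MYC-2983 libraries with Dox and 67.6, 52.6, 77.5 and 72.4 units without it. In VM-3055 cells, Scube3 read 82.8, 85.1, 73 and 87.7 units with Dox and 434, 432, 426 and 444 units without it. In VIM-3039 cells, Scube3 read 145, 117, 144 and 122 units with Dox and 642, 470, 521 and 569 units without it. The MYC-2983 groups overlapped, and in the other lines Dox brought Scube3 from 426 to 642 units down to 73.0 to 145 units. The changes were 0.00 (MYC-2983), -2.39 (VM-3055) and -2.05 (VIM-3039), and the difference was -2.22 ± 0.14 (SE; adjusted p = 7.51e-13). Podxl2, endoglycan, lies at mm9 chr6:88792552-88825038, minus strand. Podxl2 read 67.1, 71.2, 60.7 and 65 units in the MYC-2983 libraries with Dox and 59.1, 50.7, 52.1 and 63.1 units without it. In VM-3055 cells, Podxl2 read 39.9, 42.6, 41.6 and 50.9 units with Dox and 166, 176, 189 and 172 units without it. In VIM-3039 cells, Podxl2 read 30.5, 24.3, 44 and 40.4 units with Dox and 144, 116, 113 and 134 units without it. Its groups overlapped in MYC-2983 cells and were separate in the others. The difference was -2.16 ± 0.17 (SE; adjusted p = 6.68e-11). Efhd1 (a mitochondrial calcium-binding protein), Ephb6 (a kinase-inactive ephrin receptor) and Dclk1 (a microtubule-binding kinase) had differences of -2.15, -1.99 and -1.91. In MYC-2983 cells Efhd1 and Dclk1 changed by 0.47 and 0.39 (adjusted p = 0.00239 and 0.000237), short of the threshold for a call. Dclk1 went from 241 to 279 units without Dox down to 60.6 to 86.0 units with it in VIM-3039 cells.

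With the deposited scaling, a larger fall in the Vhl-deleted lines than in MYC-2983 cells was the commonest pattern among genes that moved the same way everywhere. The excess below 0 depended on the scaling. Of all passing genes measurable in all lines, 309 of 403 were below 0, 256 of 373 with TMM rescaling and 221 of 373 with quantile normalization. Inhba, the beta A subunit of activin and inhibin, lies at mm9 chr13:16103684-16119044, plus strand. Inhba read 93.9, 83.2, 80.2 and 121 units in the MYC-2983 libraries with Dox and 285, 263, 274 and 277 units without it. In VM-3055 cells, Inhba read 24.4, 17.9, 21.2 and 21.1 units with Dox and 169, 191, 158 and 159 units without it. In VIM-3039 cells, Inhba read 226, 223, 254 and 208 units with Dox and 2316, 1816, 1984 and 2114 units without it. The 3 lines differed in level, with VIM-3039 cells highest, and all fell without overlap. The changes were -1.55 (MYC-2983), -2.95 (VM-3055) and -3.17 (VIM-3039), and the difference was -1.51 ± 0.13 (SE; adjusted p = 1.95e-10). Krt8, the simple-epithelial keratin 8, fell from 591 ± 14.5 to 293 ± 7.32 units (SD, n = 4) in MYC-2983 cells and from 138 ± 18.9 to 10.2 ± 3.15 in VM-3055 cells. Its difference was -1.91 ± 0.19 (SE; adjusted p = 2.85e-09), and the Vhl-deleted lines also differed from each other by 1.53. Ttc12, chosen after its values were seen, had a difference of -1.90. The reverse, a larger fall in MYC-2983 cells, was shown by Sprr1a, a cornified envelope protein chosen in the same way, which read 119 to 138 units without Dox and 8.94 to 14.2 with it. Sprr1a changed by -3.34 (MYC-2983), -2.21 (VM-3055) and -2.07 (VIM-3039), a difference of 1.20, or 0.59 with a pseudocount of 10.

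Most matrix genes were lower with Dox in all lines, and 6 differed past the threshold. Of 53 collagen, laminin and matrix genes tested, falls were called for 40 in MYC-2983 cells, 33 in VM-3055 cells and 30 in VIM-3039 cells, against 14.1%, 17.1% and 14.7% of all genes. Their median changes were -1.41, -1.31 and -1.42. The difference was above 0 for Loxl3 and Lama4 and below 0 for Col4a4, Col4a3, Col6a2 and Lum, 11.3% of the list against 7.27% of all genes. Lama4 did not pass with a pseudocount of 0.1 (1.16). Lum did not pass with a pseudocount of 10 (-0.22), with VM-3055 cells alone (-0.99), or without MYC-2983 Dox library 2 (-0.99), MYC-2983 no-Dox library 4 (-0.87) or VIM-3039 no-Dox library 1 (-0.99). The list's median difference was -0.03, between -0.18 (pseudocount of 0.1) and 0.04 (pseudocount of 10) under the other settings. Over the 36 genes measurable in all lines it was -0.27, with 12 above 0. Col4a4 and Col4a3 are neighbouring genes for chains of the basement membrane collagen IV, on opposite strands of chromosome 1. Col4a4 read 153, 165, 128 and 197 units in the MYC-2983 libraries with Dox and 946, 1086, 1027 and 1027 units without it. In VM-3055 cells, Col4a4 read 5.17, 4.26, 2.55 and 5.26 units with Dox and 88.2, 106, 109 and 81.3 units without it. In VIM-3039 cells, Col4a4 read 4.86, 4.16, 5.25 and 2.42 units with Dox and 211, 149, 214 and 211 units without it. Every line fell without overlap, to 2.42 to 5.26 units in both Vhl-deleted lines, where 1 library of each was at 3 reads or fewer. Col4a4 had a difference of -2.07 ± 0.23 (SE; adjusted p = 1.88e-08) and Col4a3 of -1.36 ± 0.30 (SE; adjusted p = 0.000414). With a pseudocount of 10 these were -0.76 and -0.50 and did not pass, nor did Col4a3 under quantile normalization (-0.57). The summed level of the 8 fibroblast markers was also lower with Dox. In MYC-2983 cells, where nearly all of it was Postn, it went from 26812 to 28037 units without Dox to 8888 to 9770 with it. In VM-3055 cells the sum went from 55 to 90.3 down to 12.7 to 16.2 units, and in VIM-3039 cells from 226 to 254 down to 52.8 to 84.6 units. By gene, falls were called for 4 of the 8 in MYC-2983 cells, 2 in VM-3055 cells and 1 in VIM-3039 cells. Only 1 of the 8 was measurable in all lines. Lum belongs to both lists, so the markers are not separate from the matrix genes. The part of the fibroblast markers in the matrix result was not tested.

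Cx3cl1 and Kctd12 were among the genes whose fall was called in MYC-2983 cells and whose change in the other lines was not. Cx3cl1, the chemokine fractalkine, lies at mm9 chr8:97295909-97306323, plus strand. Cx3cl1 read 563, 531, 553 and 590 units in the MYC-2983 libraries with Dox and 1523, 1588, 1561 and 1626 units without it. In VM-3055 cells, Cx3cl1 read 349, 352, 333 and 332 units with Dox and 452, 430, 440 and 425 units without it. In VIM-3039 cells, Cx3cl1 read 154, 140, 138 and 151 units with Dox and 122, 137, 133 and 121 units without it. With Dox, Cx3cl1 was lower in MYC-2983 cells, lower by less in VM-3055 cells and slightly higher in VIM-3039 cells, all without overlap. The changes were -1.49 (MYC-2983), -0.35 (VM-3055) and 0.18 (VIM-3039), and the difference was 1.41 ± 0.06 (SE; adjusted p = 3.39e-16). Kctd12, an auxiliary subunit of GABA-B receptors, lies at mm9 chr14:103377437-103381745, minus strand. Kctd12 read 153, 164, 172 and 156 units in the MYC-2983 libraries with Dox and 309, 324, 342 and 359 units without it. In VM-3055 cells, Kctd12 read 439, 470, 480 and 462 units with Dox and 380, 394, 347 and 383 units without it. In VIM-3039 cells, Kctd12 read 435, 438, 449 and 444 units with Dox and 318, 347, 308 and 314 units without it. Kctd12 fell in MYC-2983 cells and read higher with Dox in both others, short of the threshold. Its difference was 1.42 ± 0.07 (SE; adjusted p = 1.79e-15). Others were Sigirr (an inhibitor of interleukin-1 receptor signalling) and Ckb (brain creatine kinase), at 1.30 and 1.25, and Sigirr did not pass with VM-3055 cells alone (0.85). Ckb went from 3684 to 4037 units to 1232 to 1275 units in MYC-2983 cells, and from 178 to 200 units to 121 to 184 units in VM-3055 cells, where its change of -0.34 (adjusted p = 0.000254) was short of the size threshold, as was that of -0.39 in VIM-3039 cells.

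Many genes of the interferon response fell with Dox, and their differences had both signs. Of 38 genes tested, falls were called for 31 in MYC-2983 cells, 28 in VM-3055 cells and 18 in VIM-3039 cells, against 14.1%, 17.1% and 14.7% of all genes. The median changes were -2.15, -1.49 and -0.93. The difference passed above 0 for 8 genes and below 0 for 3, which is 28.9% of the list against 7.27% of all genes. Only 23 of the 38 were measurable in all lines. Of these 23, 2 passed above 0 (Dhx58, Tap1) and 3 below 0 (Isg15, Gbp2, Tap2), with a median difference of -0.13. Dhx58, the RNA sensor LGP2, was at 61 to 77 units without Dox and 11.9 to 17.8 with it in MYC-2983 cells. In VM-3055 cells Dhx58 was at 3.53 to 9.30 units without Dox and 9.34 to 13 with it, and its difference was 2.91 ± 0.33 (SE; adjusted p = 4.05e-08). Isg15, a ubiquitin-like protein, changed by -2.34 (MYC-2983), -3.65 (VM-3055) and -3.75 (VIM-3039). Its difference was -1.36 ± 0.26 (SE; adjusted p = 7.75e-05), and became 0.11 with a pseudocount of 10 and -0.63 under quantile normalization. Gbp2, an interferon-induced GTPase, fell from 487 ± 30.8 to 40.7 ± 3.19 units (SD, n = 4) in VM-3055 cells and had a difference of -1.17 ± 0.29 (SE; adjusted p = 0.00143), which was -0.62 with a pseudocount of 10, -0.35 under quantile normalization and -0.85 with VM-3055 cells alone. The list's median difference was 0.25, and it was -0.11 with a pseudocount of 0.1, -0.07 over genes with a mean of 10 units or more and -0.24 with VM-3055 cells alone.

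**Figure D5:**
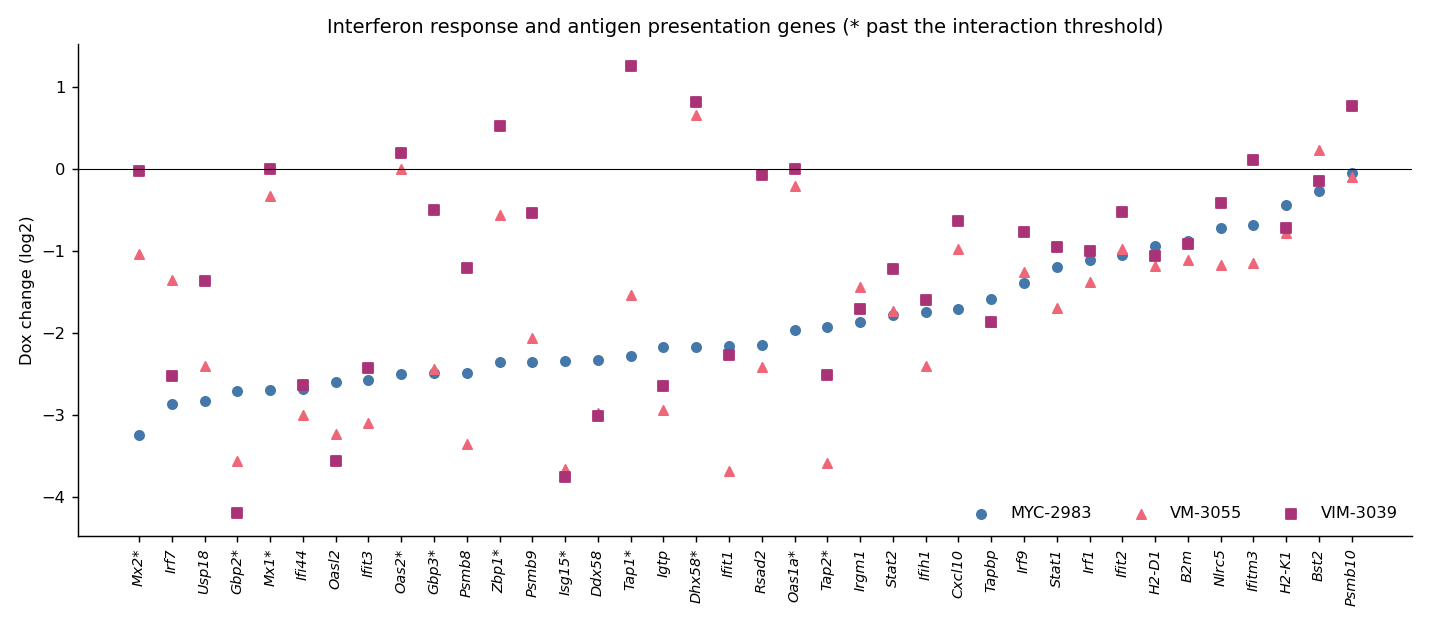
Dox change (y axis, log2) of the 38 interferon response and antigen presentation genes tested (x axis, ordered by the change in MYC-2983 cells) in MYC-2983 (circles), VM-3055 (triangles) and VIM-3039 cells (squares). An asterisk marks the 11 genes past the threshold, 8 with a difference above 0 and 3 below 0. Nearly all circles lie below 0, while several squares lie near or above it.

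Chemokines and cytokines had 6 genes past the threshold above 0 (Cxcl2, Ccl20, Cxcl16, Cx3cl1, Cxcl5, Csf3) and 1 below 0 (Il18) among 29 tested, 24.1% of the list against 7.27% of all genes. Il18 did not pass by voom, with a pseudocount of 0.1 or 10, or after thinning to equal depth (-1.57 to -0.71), and Cxcl2 did not with VM-3055 cells alone (1.13, adjusted p = 0.058 by limma). Of these, 4 above 0 and none below 0 were measurable in all lines. Ccl20, a chemokine of epithelia, went from 409 ± 6.12 to 246 ± 26 units (SD, n = 4) in MYC-2983 cells, short of the threshold, and rose from 8.73 ± 6.03 to 28.7 ± 5.64 units in VIM-3039 cells. With VM-3055 cells alone set against MYC-2983 cells Ccl20 did not pass. In the list of AP-1 and MAPK feedback genes, Fosl1 and Egr1 were the 2 of 23 past the threshold, both above 0. That is 8.70% of the list, near the 7.27% of all genes. Egr1 did not pass with VM-3055 cells alone (0.68). Fosl1, which encodes FRA1, went from 124 ± 10.9 to 60.1 ± 6.6 units in MYC-2983 cells and from 212 ± 20.1 to 500 ± 22.9 in VIM-3039 cells, a difference of 1.83 ± 0.11 (SE; adjusted p = 1.9e-13). Of 34 receptor tyrosine kinases and ligands, the EGF receptor ligands Ereg and Areg passed above 0 and Fgfr3, Igf2 and Pdgfa below 0, 14.7% of the list against 7.27% of all genes. Areg did not pass with VM-3055 cells alone (0.62). Igf2 did not pass without moderation of the variance, with a pseudocount of 0.1 or 10, under quantile normalization, after thinning or with VIM-3039 cells alone (-1.46 to -0.59). Nor did Igf2 pass (-1.23 to -1.08) without MYC-2983 Dox library 3 or 4, MYC-2983 no-Dox library 1, 2 or 3, VM-3055 Dox library 3, VM-3055 no-Dox library 1 or 4, VIM-3039 Dox library 2, or VIM-3039 no-Dox library 2 or 3.

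WNT pathway genes gave 2 calls above 0 and 6 below 0 among 37 tested, 21.6% of the list against 7.27% of all genes. Rnf43, the ubiquitin ligase that removes Frizzled receptors from the cell surface, was 1 of the 3 genes raised in MYC-2983 cells and lowered in both others (mm9 chr11:87476224-87549041, plus strand). Rnf43 read 38, 41.3, 43.3 and 24.6 units in the MYC-2983 libraries with Dox and 11.2, 19.7, 13.9 and 9.79 units without it. In VM-3055 cells, Rnf43 read 5.17, 5.11, 5.94 and 0.877 units with Dox and 16.8, 14, 16.3 and 16.7 units without it. In VIM-3039 cells, Rnf43 read 9.72, 5.55, 4.59 and 4.04 units with Dox and 33.2, 29, 41.8 and 32.4 units without it. The groups were separate in every line, at low levels. Rnf43 changed by 1.38 (MYC-2983), -1.84 (VM-3055) and -2.38 (VIM-3039), and the difference was -3.50 ± 0.39 (SE; adjusted p = 2.42e-08). The others below 0 were Sfrp2, Dkk2, Wnt6, Axin2 and Wnt11, and those above 0 were Dkk1 and Wnt2. Of the 8, 3 were measurable in all lines, all below 0. Wnt2 did not pass with a pseudocount of 0.1 or 10, under quantile normalization or with VIM-3039 cells alone (0.54 to 0.93), Sfrp2 did not with a pseudocount of 0.1 (-0.73), and Dkk1 did not with a pseudocount of 10 (0.50). Hdac9, a histone deacetylase picked after its values were seen, changed by 1.63 in MYC-2983 cells and -2.95 in VIM-3039 cells, and its change in VM-3055 cells missed the threshold.

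Of 19 renal lineage factors tested, 1 passed above 0 (Lhx1) and 4 below 0, Wt1, Emx1 and Hnf4a among them, 26.3% of the list against 7.27% of all genes. Wt1 did not pass with a pseudocount of 0.1 (-1.22), with VIM-3039 cells alone (-1.14) or without MYC-2983 no-Dox library 1 (-1.06). Lhx1, of the early nephron, fell from 155 ± 15.9 to 62.8 ± 8.78 units (SD, n = 4) in MYC-2983 cells and rose from 15.7 ± 3.63 to 32.3 ± 6.41 in VM-3055 cells. Lhx1 was the only one of the 5 measurable in all lines. Of 28 EMT and epithelial genes, Krt7 and Cdh11 passed above 0 and Krt8, Esrp1 and Cldn1 below 0, 17.9% of the list against 7.27% of all genes. With VIM-3039 cells alone Krt7 (0.91) and Cdh11 (0.82) did not pass, nor did Krt7 (0.73) and Esrp1 (-0.62) with a pseudocount of 10 or Cdh11 (1.06) with one of 0.1.

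The remaining lists are set against the 7.27% of all genes that passed. Of 32 lysosome and autophagy genes none passed, 9 had a difference above 0, and the median was -0.23, with 19 below 0 at the adjusted p alone (25.9% of all genes). No p53 target of 26 and no gene of cholesterol and fatty acid synthesis of 30 passed, and the medians were 0.03 and 0.18. Of the p53 targets, Phlda3 did pass under TMM rescaling (1.07), quantile normalization (1.14) and voom (1.04). It also passed with VIM-3039 cells alone (1.10) and on leaving out some of the single libraries. Of 24 TGF-beta, BMP and YAP targets, Bmp7, Inhba and Tgfbi passed below 0 (12.5%), and Bmp7 did not with a pseudocount of 10 (-0.50). Of 20 integrins, Itgb4 passed above 0 and Itga8 and Itga9 below 0 (15%), and none of the 3 passed with a pseudocount of 10 (0.79, -0.45 and -0.83). With VM-3055 cells alone Itgb4 (0.21) and Itga9 (-0.85) did not pass, nor did Itga8 (-1.37) with VIM-3039 cells alone or Itga9 (-0.55) under quantile normalization.

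Many large differences belonged to genes that at least 1 of the lines hardly expressed. Camkv (a kinase-like vesicle protein) went from 30.8 ± 3.42 to 558 ± 28.7 units (SD, n = 4) in MYC-2983 cells. It was at 3 reads or fewer in all 16 libraries of the other lines. Myh7b and Gucy1b3 were also at 3 reads or fewer in those libraries, and were at 55.7 ± 1.87 and 87.7 ± 9.95 units with Dox in MYC-2983 cells. In the other direction, Iigp1, an interferon-induced GTPase, fell in MYC-2983 cells from 118 ± 21.5 to 12.8 ± 2.23 units and Saa3 from 92.2 ± 3.23 to 11.8 ± 1.93. The difference of Iigp1 did not pass with a pseudocount of 0.1 (2.37). Ccnb1ip1 rose from 6.88 ± 2.79 to 315 ± 30.3 units in VIM-3039 cells and was at 3 reads or fewer in every library of the other lines. For such genes the difference describes a change in the expressing line and says nothing of the response of the others.

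The Vhl-deleted lines were also compared with each other, which shares no library with MYC-2983 cells. The Dox changes of VIM-3039 and VM-3055 cells differed for 1033 genes (6.42%), 624 higher (3.88%) and 409 lower (2.54%) in VIM-3039 cells, and quantile normalization gave 448 and 505. Of the 1170 genes that differed from MYC-2983 cells, 935 did not pass in this comparison and 235 did. Of the 403 measurable in all lines, 81 did. Not passing does not show that a gene changed alike in both Vhl-deleted lines. The change in VIM-3039 cells minus that in VM-3055 cells was 0.08 for Slc1a5, 0.09 for Cisd3, -0.08 for Pdk1 and -0.22 for Inhba, against -1.82 for Adm and 1.53 for Krt8.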

How the data were processed

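The 24 libraries are RNAseq of cultured cells, 4 for each of 3 lines with and without Dox. The authors aligned reads to mm9 with MapSplice, estimated gene abundance with RSEM, and deposited a signal table in which each library is scaled to an upper quartile of 1000. The submitters' processing notes name Picard 1.64. The values are not counts. Of the values below 20 reads, 94.1% to 95.9% per library were whole multiples, within 0.02, of what 1 read is worth, which gave the estimated depths, and 3 reads correspond to 1.16 to 3.34 units. The limit of 3 reads covers counting error only.

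Log2(value + 1) values entered a linear model (limma 3.58.1, R 4.3.3) of 6 group means, with moderated variances and a trend, over 16092 of 21705 genes that were above 0 in at least 4 of 24 libraries. All tests are two-sided, and passing takes a p under 0.05 after Benjamini-Hochberg adjustment together with a size above 1. Adding 1 understates the change of low genes. Fits were tested on simulated data: all 100 genes at a true difference of 1.5 and all 100 at 2 were recovered. The same run made 34 other, false calls among 16216 genes, and a run with no changed gene made 12 among 16233. The changed genes had at least 50 units in every group before the change, and the spread was set alike for all genes. Recovery of genes at lower levels was not tested. No deposited columns were left unassigned. Genes were named by the 5 largest differences in each class of calls (at least 50 units in every line, Vhl-deleted lines within 1 of each other), up to 4 members of each list, and the largest among genes not measurable in a line. Genes given values outside that rule are marked in the text, and further list members that passed are given by symbol. Some items are not reported here. The comparison, its members and the lists were chosen with earlier results of these data known. Promoters come from RefSeq (GRCm38.p6), matched by symbol for 11171 tested genes, and gene positions from the NCBIM37 annotation (mm9).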

Additional observations from a re-analysis of the deposited data

Results flagged for a closer look

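Among 525 groups of 4 libraries over the 115 named genes, 31 held 1 library far from the other 3 by Dixon's criterion, where chance gives about 1 in 20. Each is given in units, with the mean of the other 3 libraries after it. In MYC-2983 cells with Dox this was Esrp1 at 26.1 (10.5). In MYC-2983 cells without Dox this was Adm at 99.4 (119), Acss2 at 234 (255), Itgb4 at 57.1 (42.3), Slc1a5 at 1298 (1328), Thy1 at 44.1 (27.3), Saa3 at 87.4 (93.8) and Slc29a1 at 1144 (1198). In VM-3055 cells with Dox this was Dclk1 at 165 (186), Phlda3 at 78.9 (91.3), Slc1a5 at 2336 (2053), Slc16a6 at 170 (148) and Sprr1a at 102 (126). In VM-3055 cells without Dox this was Rrm2 at 2437 (2248), C530008M17Rik at 69.8 (88.1), Ckb at 178 (199), Cdh16 at 9230 (8936), Mybbp1a at 3859 (3610), Isg15 at 71.7 (54.1), Rnf43 at 14 (16.6), Rps13 at 44.6 (21), Paics at 4410 (4106), Pdzrn3 at 10.1 (13.1) and Slc29a1 at 284 (307). In VIM-3039 cells with Dox this was Myc at 432 (364), Ckb at 858 (956), Nop2 at 3898 (3824) and Sssca1 at 122 (205). In VIM-3039 cells without Dox this was Cisd3 at 532 (561), Cdc6 at 304 (281) and Col4a4 at 149 (212).

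The Dox change differed between the Vhl-deleted lines and MYC-2983 cells for 1170 genes, and between VIM-3039 and VM-3055 cells for 1033 genes, each by a test of the difference itself.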

How the results depend on the processing

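The difference passed for 1170 genes, and for 941 to 1269 under a pseudocount of 0.1, no filter, TMM rescaling (1104), quantile normalization (1005), no moderation of the variance and limma voom on recovered reads (1269). Requiring a mean of at least 10 units, which tests fewer genes, left 629, and a pseudocount of 10 left 488. The comparison of VIM-3039 with VM-3055 cells gave 655 and 457 under those settings, the Dox change in MYC-2983 cells 1935 with a pseudocount of 10, and genes measurable in all lines 231 with it. Leaving out each library in turn gave 1109 to 1173 genes for the difference, 389 to 413 for those measurable in all lines, 2923 to 3008 for the Dox change in MYC-2983 cells, 3583 to 3662 in VM-3055 cells, 3397 to 3492 in VIM-3039 cells, and 992 to 1055 for VIM-3039 against VM-3055 cells. Thinning every library to the depth of the shallowest, chosen after seeing the data, gave 1104. The counts of the classes of calls moved in 26 comparisons with another setting and stayed alike in 64. On leaving out single libraries they moved in 1 comparison and stayed alike in 215. With VM-3055 cells alone 1372 genes passed (515 above 0, 857 below 0), and with VIM-3039 cells alone 1417 (718 and 699). Signs turned for Psmb9 (-0.15 with a pseudocount of 0.1), Isg15 (0.11 with a pseudocount of 10), Vhl and Cdkn2a (0.075 and 0.093 under quantile normalization), and Fgf21, Itgam and Sssca1 (-0.11, 0.10 and -0.014 with VIM-3039 cells alone). The causes were not tested.

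With the replicate block 1184 genes passed, 407 of them measurable in all lines. The main fit did not pair the samples by number. MYC-2983 titles carry none, and whether same-numbered VM-3055 or VIM-3039 libraries belong together is not stated. The mean correlation of same-numbered libraries was -0.105 for VM-3055 and 0.0188 for VIM-3039 over 10814 genes. For libraries with unlike numbers it was 0.035 and -0.0063, which does not settle the pairing. Genes under about 10 units, and the lower depth of the Vhl-deleted lines, limit what could be compared.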

Other observations

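Sssca1, a gene picked after its values were seen, was listed at 0 in all 12 libraries without Dox. With Dox, Sssca1 read 165, 94.1, 239 and 293 units in MYC-2983 cells. In VM-3055 cells, Sssca1 read 559, 514, 405 and 497 units, and in VIM-3039 cells 208, 205, 202 and 122 units. The difference of its Dox changes was 0.71 ± 0.30 (SE; adjusted p = 0.0602, limma), short of the threshold. With VM-3055 cells alone the difference was 1.43 (adjusted p = 0.00148, limma) and passed, and with VIM-3039 cells alone it was -0.014, so the mean describes neither line. Sssca1 overlaps Fam89b on the same strand and Gm16538 on the other.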
